A study of Mus musculus with 8 samples.

Results

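The nuclear genes for the subunits of oxidative phosphorylation were examined in embryonic mouse kidney after maternal exposure to the insecticide chlorpyrifos. They were chosen by symbol (Nduf followed by a, b, c, s or v and a digit, Sdha to Sdhd, Uqcr genes, Cox4 to Cox8 genes and Atp5 genes), which gave 84 of 24151 genes. Kidneys came from embryos of ICR mice, an outbred stock. In the chlorpyrifos group (CPF) the mothers received 5 mg per kg under the skin daily from gestation day 7.5 to 11.5, and in the DMSO group they received the same volume of solvent. Each group has 1 library per stage (E12.5 and then every 2 days to E18.5), so there were 4 CPF and 4 DMSO libraries, and the number of embryos or litters in a library is not stated in the sources used here. Wherever a group has 4 values, they follow the order of the stages, with E12.5 at the start.

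Oxidative phosphorylation is carried out in the inner mitochondrial membrane. Complexes I and II pass electrons from NADH and succinate to ubiquinone, complex III passes them to cytochrome c, complex IV reduces oxygen, and complex V uses the proton gradient made by complexes I, III and IV to form ATP. Most subunits are encoded in the nucleus and a few in mitochondrial DNA. In the kidney the pathway is best known for powering salt and solute uptake by the proximal tubule and the loop of Henle, which form while the embryonic kidney matures.

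Values are TPM, a transcript's share of a library after allowing for its length, deposited by the authors per RefSeq transcript and summed here per symbol. By complex there were 37 genes of complex I, 4 of complex II, 8 of complex III, 18 of complex IV and 17 of complex V. Ndufa4 is counted with complex I by its symbol, although its protein has since been assigned to complex IV. Atp5s and Atp5sl carry an Atp5 symbol but are named Dmac2l and Dmac2 by RefSeq and are not subunits. Of the 84 genes, 75 reached 1 TPM in at least 2 libraries and were tested, and 9 did not: Ndufa7, Ndufs1, Ndufs5, Ndufs6, Ndufs8, Cox6a2, Cox6b2, Cox7b2 and Cox8c. The 11 subunit genes with several RefSeq transcripts had a median of 0.630 TPM, against 234 TPM for the 73 with 1 transcript. Of the 11, 10 averaged under 3 TPM, and the exception was Ndufv3, a flavoprotein subunit of complex I, with 18.9 to 54.4 TPM. Ndufs1 and Ndufs8, core subunits of complex I, are among the 11 and are listed at 0 in every library, as is Ndufs5, which has 1 transcript and 1 near-identical gene. Values near 0 in these genes were not read as low expression. In all 12 of the 84 genes had a near-identical gene elsewhere, and for Atp5l (9 such genes), Uqcrb and Atp5h (3 each) and Atp5g2 (2) the level depends on how reads were shared out.

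The regulatory sequence of these genes is shown for 6 members whose promoters hold, or lack, the letters searched. Cox7a1 is shown because it is 1 of the 2 members that passed the test between stages, and the others because each holds a motif associated with genes of mitochondrial proteins. The RefSeq table of GRCm38.p6 gave 75 promoter windows for 69 of the 84 genes, each from 250 bases before to 50 after a transcript start. Capitals mark matches on either strand to GCGCATGCG (NRF1 core), CCGGAAGT (ETS core, bound by GABP), AAGATGGC (YY1 core), TCAAGGTCA (ERR core) or, for the TATA box, to the letters TATAAA, and overlapping matches run together.
Cox7a1 promoter, GRCm38.p6 chr7:30183921-30184220, plus strand: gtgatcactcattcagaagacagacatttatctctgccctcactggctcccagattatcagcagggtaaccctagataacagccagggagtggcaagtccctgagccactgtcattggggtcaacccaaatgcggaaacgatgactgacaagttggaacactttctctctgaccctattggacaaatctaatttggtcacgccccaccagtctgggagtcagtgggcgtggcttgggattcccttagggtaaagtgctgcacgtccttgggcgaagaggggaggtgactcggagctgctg
Uqcr11 promoter, GRCm38.p6 chr10:80406772-80407071, minus strand: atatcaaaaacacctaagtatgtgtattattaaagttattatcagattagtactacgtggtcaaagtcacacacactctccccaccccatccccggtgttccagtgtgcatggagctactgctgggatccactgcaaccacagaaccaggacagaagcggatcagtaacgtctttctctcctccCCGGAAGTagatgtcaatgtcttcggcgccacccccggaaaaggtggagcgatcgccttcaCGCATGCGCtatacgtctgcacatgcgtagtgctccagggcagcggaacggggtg
Uqcrc1 promoter, GRCm38.p6 chr9:108936398-108936697, plus strand: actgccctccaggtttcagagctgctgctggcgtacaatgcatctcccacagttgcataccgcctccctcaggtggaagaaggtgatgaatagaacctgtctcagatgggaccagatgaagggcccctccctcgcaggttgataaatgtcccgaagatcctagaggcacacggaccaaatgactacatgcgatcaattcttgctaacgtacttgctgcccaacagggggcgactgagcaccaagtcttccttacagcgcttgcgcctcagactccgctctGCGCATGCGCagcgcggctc
Cox8a promoter, GRCm38.p6 chr19:7217567-7217866, minus strand: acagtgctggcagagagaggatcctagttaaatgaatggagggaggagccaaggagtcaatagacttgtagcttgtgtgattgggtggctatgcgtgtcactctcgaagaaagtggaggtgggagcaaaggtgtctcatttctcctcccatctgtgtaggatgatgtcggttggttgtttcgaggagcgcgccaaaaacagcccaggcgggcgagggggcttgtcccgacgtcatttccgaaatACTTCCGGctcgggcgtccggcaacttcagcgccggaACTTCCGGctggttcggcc
Ndufb8 promoter, GRCm38.p6 chr19:44555393-44555692, minus strand: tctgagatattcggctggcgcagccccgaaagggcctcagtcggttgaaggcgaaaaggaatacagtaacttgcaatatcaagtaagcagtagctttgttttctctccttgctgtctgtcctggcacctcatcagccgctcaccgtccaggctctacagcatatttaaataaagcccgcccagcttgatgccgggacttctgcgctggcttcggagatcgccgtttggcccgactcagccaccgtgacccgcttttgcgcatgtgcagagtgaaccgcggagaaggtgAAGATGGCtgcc
Atp5g3 promoter, GRCm38.p6 chr2:73911277-73911576, minus strand: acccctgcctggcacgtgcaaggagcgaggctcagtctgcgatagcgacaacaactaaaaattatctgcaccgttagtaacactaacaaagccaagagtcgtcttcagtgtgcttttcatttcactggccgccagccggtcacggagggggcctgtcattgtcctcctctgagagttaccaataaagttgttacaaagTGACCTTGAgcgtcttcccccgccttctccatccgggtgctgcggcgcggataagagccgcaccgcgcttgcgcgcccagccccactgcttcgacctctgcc
The NRF1 core was present in 10.7% of the 75 windows and in 1.75% of all 32851 windows of the same length in the table. The YY1 core was present in 12 of the 75 windows and in 903 of all 32851. The ETS core was present in 6.67% of the windows of these genes and 3.89% of all windows. The ERR core was present in 2.67% and 0.423%, and the TATA box in 10.7% and 13.6%. The NRF1, ETS or YY1 core was present in 23 of the 69 genes, and Uqcr11 was the 1 gene with both the NRF1 and the ETS core. None of the 5 motifs is in the Cox7a1 window shown. A match describes letters in a window and not a site in use.

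The subunits were among the abundant mRNAs of these kidneys, and 57 of the 84 averaged at least 100 TPM. Together they made up 3.13, 3.50, 3.20 and 4.35% of the TPM of coding transcripts in the CPF libraries, and 2.59, 3.54, 3.61 and 4.27% in the DMSO libraries. The share was highest at E18.5 in both groups, and the groups overlapped. The share is taken of coding transcripts because 2 noncoding RNAs, Rpph1 and Rmrp, took 19.3 to 21.8% of all TPM in the CPF libraries and 19.6 to 41.8% in the DMSO libraries, where the share was higher at each later stage. Of all TPM, the subunits made up 2.31, 2.54, 2.34 and 3.22% in CPF, against 1.94, 2.46, 2.28 and 2.28% in DMSO, so the highest share at E18.5 in the DMSO group is seen only on the coding scale.

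**Figure D1:**
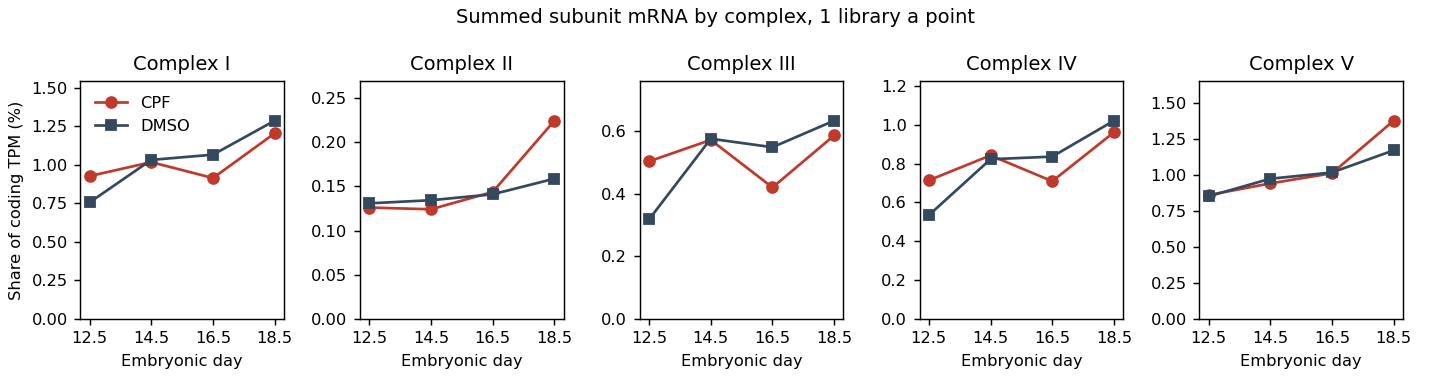
Share of the TPM of coding transcripts (percent, vertical axis) in the subunits of each complex against embryonic day, 1 library a point, CPF as red circles and DMSO as dark squares. Each complex has its highest value at E18.5 in both groups, and complex II at E18.5 is 0.225% in CPF and 0.159% in DMSO.

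Complex V held the most abundant member, Atp5b, the catalytic beta subunit, with 1340, 1359, 1904 and 2814 TPM in CPF libraries, against 1720, 1253, 1507 and 1345 TPM in DMSO libraries. Its partner in the catalytic head, Atp5a1, averaged 1144 TPM over the 8 libraries, and Atp5j2, a small subunit of the membrane part, averaged 901 TPM. Atp5b was highest in CPF at E18.5, and the remaining 7 libraries of the 2 groups overlapped. In complex I, Ndufa4 averaged 1166 TPM, ahead of the accessory subunits Ndufb8 (642 TPM) and Ndufa6 (355 TPM). In complex III, the hinge protein Uqcrh averaged 1030 TPM, Uqcrb 667 TPM and Uqcr10 635 TPM. In complex IV, Cox6c averaged 954 TPM, Cox4i1 927 TPM and Cox6b1 864 TPM. Complex II held the smallest share. Its 4 members, the flavoprotein Sdha, the iron-sulfur protein Sdhb and the membrane anchors Sdhc and Sdhd, averaged 178 to 337 TPM. Atp5b over Atp5a1, Ndufb8 over Ndufa6, Uqcrh over Uqcrb and Sdhb over Sdha held in 8 of 8 libraries, and Ndufa4 over Ndufb8 in 7 of 8. The order was not resolved for Atp5a1 over Atp5j2, which held in 4 of 8 libraries, nor for Uqcrb over Uqcr10, Cox6c over Cox4i1, Cox4i1 over Cox6b1 and Sdha over Sdhc, which held in 5 of 8 each.

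Between E12.5 and E18.5 most subunits stood higher at E18.5, but only Ndufa4l2 and Cox7a1 passed the test on their own. The comparison was fitted with limma on log2(TPM + 1) with agent as a term, over all 13677 genes that passed the filter, with Benjamini-Hochberg adjusted p and calls under 0.05. Of the 75 tested members 60 were above 0 and 15 below, with 2 called higher and 0 called lower. Over all genes 5046 were above 0 and 8631 below. Of them 4.67% were called higher and 3.73% lower, so the members' calls are not above the background. At an unadjusted p under 0.05 there were 6 members higher and 0 lower, and over all genes 1323 higher and 2048 lower. The members' median difference was 0.35 on the log2 scale, against -0.21 for all genes, a gap of 0.56. With 2 libraries a stage, the spread behind each p is how far the stage difference varies between agents and stages, and not the spread between animals. Markers of mature tubules moved with the same comparison, and limma called 12 of 12 tested proximal tubule markers and 6 of 6 of the loop and distal tubule higher at E18.5. Summed, the proximal tubule markers were at 6235 TPM in CPF and 1114 TPM in DMSO at E18.5, against 17.0 TPM in CPF and 13.1 TPM in DMSO at E12.5. Markers of red blood cells summed to 31.9 TPM in CPF and 69.3 TPM in DMSO at E18.5, against 36821 TPM in CPF and 8056 TPM in DMSO at E12.5. The part of these cell types in the subunits' values was not tested.

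Over both groups the complexes had gaps of 0.52 to 0.69, but within a group they differed more. In the fit the median relative to all genes was 0.52 for complex I, 0.53 for complex II, 0.57 for complex III, 0.69 for complex IV and 0.56 for complex V. Within a group and without a test, the median of all members was 0.45 above all genes in CPF and 0.49 in DMSO on the deposited scale. Complex II stood 0.77 above all genes in CPF and 0.20 in DMSO, and complex III 0.17 in CPF and 0.86 in DMSO. Complex IV stood at 0.32 in CPF and 0.65 in DMSO, while complexes I and V lay between 0.36 and 0.49 in both groups. With 1 library a point these differences between groups were not tested. On the deposited scale 60 of 75 members were above 0 in CPF and 37 of 75 in DMSO, where the median of all genes was -0.51. Over all 13677 genes 7539 were above 0 in CPF and 3482 in DMSO. After scaling to coding transcripts 60 of 75 members were above 0 in CPF and 62 of 75 in DMSO, and over all genes 7520 in CPF and 6008 in DMSO.

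**Figure D2:**
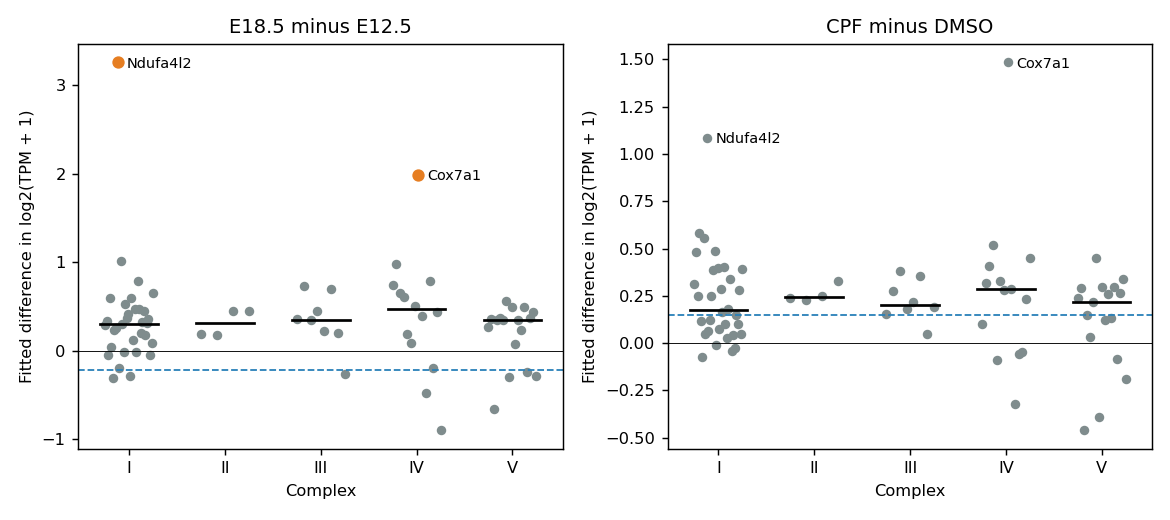
Fitted difference in log2(TPM + 1) for each of the 75 tested subunit genes (points) by complex, for E18.5 minus E12.5 on the left and CPF minus DMSO on the right. Black bars are the median of each complex, the dashed line is the median of all 13677 genes, and orange points have an adjusted p under 0.05. Members lie mostly above the dashed line on the left, where Ndufa4l2 and Cox7a1 stand apart, and on both sides of it on the right.

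In complex I, Ndufa6, an accessory subunit that binds the acyl carrier protein, had 484 TPM in CPF and 493 TPM in DMSO at E18.5, against 305 TPM in CPF and 191 TPM in DMSO at E12.5. Both E18.5 libraries were above both E12.5 libraries, and the difference of 1.02 ± 0.31 (SE, log2) did not pass (limma, adjusted p = 0.0642). Among members of complex I above 5 TPM on average, the lowest difference was that of Ndufa2, an accessory subunit of the peripheral arm, with 181 TPM in CPF and 174 TPM in DMSO at E18.5, against 271 TPM in CPF and 179 TPM in DMSO at E12.5 (-0.31 ± 0.33, adjusted p = 0.596 in limma). Ndufb8 had 1039 TPM in CPF and 781 TPM in DMSO at E18.5, against 464 TPM in CPF and 580 TPM in DMSO at E12.5. Its difference was 0.80 ± 0.31 (SE, log2, limma adjusted p = 0.129).

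In complex II the differences ran from 0.18 ± 0.32 for Sdhb to 0.45 ± 0.36 for Sdhc (SE, log2), and none passed. Sdhc had 319 TPM in CPF and 151 TPM in DMSO at E18.5, against 136 TPM in CPF and 188 TPM in DMSO at E12.5, so the groups went opposite ways in deposited TPM. After scaling to coding transcripts 4 of 4 complex II members were above 0 in CPF and 3 of 4 in DMSO. In complex III, Uqcr11, a small subunit, had 559 TPM in CPF and 454 TPM in DMSO at E18.5, against 296 TPM in CPF and 311 TPM in DMSO at E12.5 (0.73 ± 0.30, limma adjusted p = 0.149). After scaling to coding transcripts Uqcr11 (adjusted p = 0.0443) and Ndufb8 (adjusted p = 0.0321) passed as well in limma, with 4 members called. On that scale 1007 genes were called higher and 404 lower over the whole table.

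In complex IV, Cox4i1, the ubiquitous form of subunit IV, had 1552 TPM in CPF and 1010 TPM in DMSO at E18.5, against 622 TPM in CPF and 895 TPM in DMSO at E12.5 (0.75 ± 0.35, limma adjusted p = 0.205). Cox7c, with the lowest difference there among members above 5 TPM, had 51.7 TPM in CPF and 54.5 TPM in DMSO at E18.5, against 76.0 TPM in CPF and 48.9 TPM in DMSO at E12.5. Among members of complex V above that level, Atp5k, a subunit of the membrane part, had the largest difference, 0.50 ± 0.29 (SE, log2), and Atp5g2, one of the genes for the c ring, the lowest, -0.30 ± 0.41. Neither passed.

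The members called between stages were both scarce relatives of abundant subunits. Ndufa4l2 encodes a relative of Ndufa4 known from other cells as a target of hypoxia-inducible factor that lowers complex I activity. It had 1.37, 8.51, 24.6 and 35.5 TPM in CPF libraries, against 1.17, 4.00, 6.38 and 11.9 TPM in DMSO libraries. Each later stage was higher than the one before in both groups, and CPF was above DMSO at all 4 stages in TPM. At E12.5 the values stand for about 12.6 reads in CPF and 13.5 in DMSO by the steps in the low values. The order of the groups was not resolved there. Ndufa4l2 rose by 3.26 ± 0.46 (SE, log2) between E12.5 and E18.5 (limma, adjusted p = 0.000980), and it remained called under all 17 alternatives that keep it (limma, adjusted p up to 0.0230). Ndufa4 itself had 1306, 1551, 850 and 1013 TPM in CPF, against 694, 1461, 1168 and 1282 TPM in DMSO, and Ndufa4l2 reached 3.38% of their sum in CPF and 0.923% in DMSO at E18.5.

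Cox7a1 encodes the form of subunit VIIa found in heart, skeletal muscle and brown fat, and Cox7a2 the form found in most tissues. Cox7a1 had 6.41, 13.0, 26.2 and 40.7 TPM in CPF libraries, against 4.44, 1.09, 10.04 and 14.2 TPM in DMSO libraries, where the DMSO value at E14.5 stands for about 4 reads by the steps in the low values. CPF was above DMSO at all 4 stages, and both E18.5 libraries were above both E12.5 libraries. Cox7a1 rose by 1.99 ± 0.50 (SE, log2) between E12.5 and E18.5 (limma, adjusted p = 0.0284). The call was lost without the CPF E12.5 library (adjusted p = 0.195), without the CPF E18.5 library (0.117), without the DMSO E18.5 library (0.119), with quantile normalization (0.0688) and with no filter on low values (0.127), all in limma.

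Markers of muscle moved with Cox7a1 between groups and against it between stages. The summed level of 10 skeletal muscle markers was 471, 387, 97.0 and 15.0 TPM in CPF, against 119, 158, 62.3 and 7.60 TPM in DMSO, higher in CPF at each stage and lowest at E18.5. In the stage comparison 7 of the 8 tested muscle markers fell and 0 rose (limma, adjusted p under 0.05). Brown fat markers summed to 101, 226, 298 and 676 TPM in CPF, against 18.8, 176, 422 and 458 TPM in DMSO. Of that list, Ucp1, which defines brown fat, was at most 0.442 TPM in any library. Plin1, Plin5 and Prdm16 are listed at 0 in all 8, which was not read as low expression. The 1 tested member of the list, Fabp4, also expressed outside fat, rose by 3.68 ± 0.61 (SE, log2, limma adjusted p = 0.0135). The part of these cells in the Cox7a1 values was not tested.

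**Figure D3:**
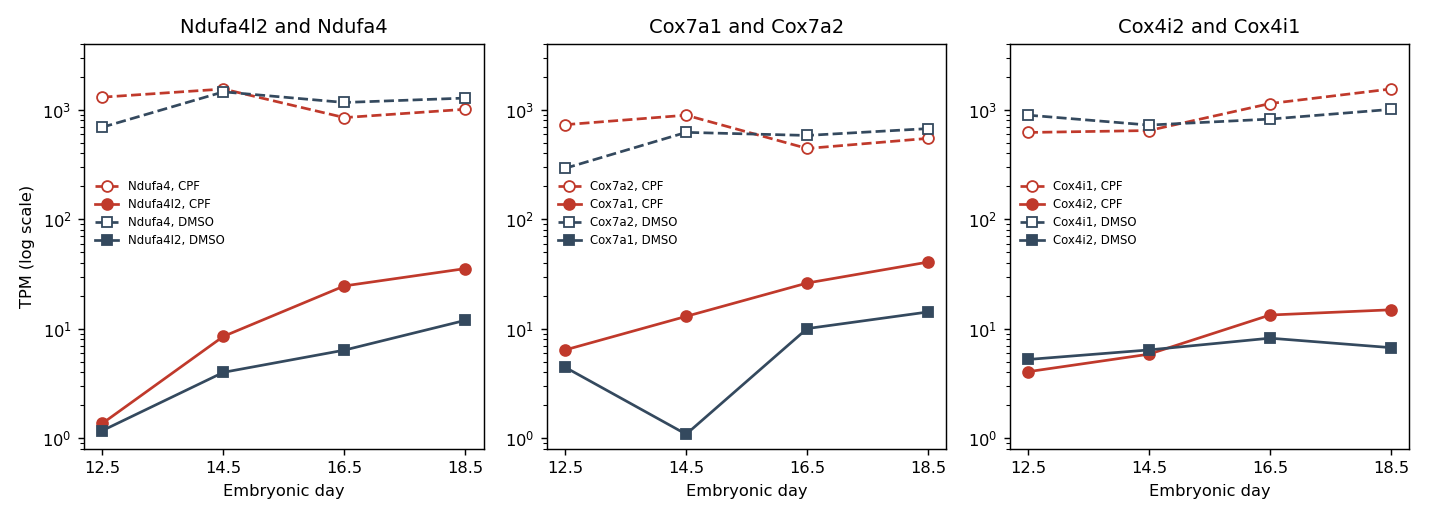
TPM on a log axis against embryonic day for the scarce forms Ndufa4l2, Cox7a1 and Cox4i2 (filled markers, solid lines) and their abundant partners Ndufa4, Cox7a2 and Cox4i1 (open markers, dashed lines), CPF as red circles and DMSO as dark squares, 1 library a point. Ndufa4l2 is between 1.17 and 35.5 TPM and lies below its partner in every library.

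The other tissue forms of complex IV stayed scarce. Cox4i2, the form of subunit IV known from lung, had 4.05, 5.86, 13.3 and 14.9 TPM in CPF, against 5.24, 6.40, 8.20 and 6.72 TPM in DMSO, at most 1.16% of its sum with Cox4i1. Its stage difference was 0.98 ± 0.44 (SE, log2, limma adjusted p = 0.191). Cox8b, the heart and muscle form of subunit VIII in the mouse, was between 0.289 and 3.38 TPM. Cox6a2, the heart and muscle form of subunit VIa, was at most 0.955 TPM outside the CPF E14.5 library, where it was 4.01 TPM. Cox8c, a form known from testis, was at most 0.640 TPM. Cox6b2, also known from testis, is one of the genes with several transcripts, and its values near 0 were not read as low expression.

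Across the 4 stages the CPF libraries showed no subunit that passed the test against DMSO. Of 75 members 63 were above 0 and 12 below, with 0 called in either direction by limma with stage as a term, where 0.154% of all genes were called higher and 0.00731% lower. Over all genes 9934 of 13677 were above 0. At an unadjusted p under 0.05 there were 4 members higher (Cox7a1, Ndufa4l2, Ndufa3 and Ndufa12) and 0 lower, and limma without trend and robust moderation also called 0. At that unadjusted p 1115 of all genes were higher and 191 lower. The members' median was 0.23, against 0.15 for all genes, and after scaling to coding transcripts it was 0.057, or 0.061 above all genes. On that scale 44 of 75 members were above 0, against 63 as deposited. A member was higher in CPF at all 4 stages in 6 cases of 75 (Atp5k, Cox7a1, Ndufa3, Ndufa4l2, Ndufa9 and Ndufb2), which is 8.00%, and 13.8% of all genes were.

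Cox7a1 had the largest difference between agents, 1.48 ± 0.35 (SE, log2, limma adjusted p = 0.133), and it passed in 2 of 16 alternatives, with a filter of 5 TPM (adjusted p = 0.0321) and without the E12.5 pair (0.0213). Ndufa4l2 differed by 1.09 ± 0.32 (adjusted p = 0.226 in limma) and passed in 0 of 15 alternatives. Ndufa3, a small accessory subunit, had 230, 315, 312 and 326 TPM in CPF, against 207, 194, 194 and 203 TPM in DMSO. The groups did not overlap in deposited TPM, but they overlapped after scaling to coding transcripts. The difference for Ndufa3 was 0.55 ± 0.20 (SE, log2, limma adjusted p = 0.377). Ndufa12, an accessory subunit of the peripheral arm with 1 near-identical gene, had 127, 197, 233 and 263 TPM in CPF, against 138, 127, 113 and 153 TPM in DMSO (0.58 ± 0.23, adjusted p = 0.411 in limma). In complex II the differences lay between 0.23 (Sdhb) and 0.33 (Sdhd), in complex III between 0.048 (Uqcrh) and 0.38 (Uqcrb), and in complex V among members above 5 TPM between -0.39 (Atp5g2) and 0.34 (Atp5s). None passed.

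Within a stage there is 1 library a group and no test, and the 69 members with a mean of at least 5 TPM were described by fold. At E12.5, 6 members were past 2-fold higher in CPF and 0 lower, against 4.24% and 1.78% of all genes. These were Cox6c, Cox7a2, Cox7b, Uqcrh, Uqcrb and Atp5j2, with transcripts of 503 to 1001 bases. Cox6c had 1151 TPM in CPF and 437 TPM in DMSO, and Uqcrh 1276 TPM in CPF and 582 TPM in DMSO. At the same stage Uqcrc1, a core protein of complex III, had 164 TPM in CPF and 277 TPM in DMSO, so subunits of 1 complex went opposite ways. At E14.5, 1 member, Cox7a1, was past 2-fold higher and 0 lower, against 3.74% and 1.12% of all genes. At E16.5, 3 members were past 2-fold higher (Ndufa4l2, Cox7a1 and Ndufa12) and 2 lower (Cox7b and Atp5l), against 4.85% and 1.92% of all genes.

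At E18.5, 19 members were past 2-fold higher in CPF and 0 lower, against 21.8% and 1.44% of all genes. They included Atp5b, Atp5a1, Atp5d and Atp5g3 of complex V, Sdha and Sdhc of complex II, and Uqcrc1 and Uqcrfs1 of complex III. With 19 of 69 members and 2082 of 9572 genes past that fold, much of the table moved together at this stage. After scaling to coding transcripts 2 members were past 2-fold higher and 1 lower, against 978 and 368 of 10296 genes. The members' median ratio relative to all genes was 0.28 at E12.5, -0.047 at E14.5, 0.024 at E16.5 and 0.090 at E18.5. Complex II stood highest at E18.5, with a median 0.41 above all genes, and its share of coding TPM was 1.41 times that of DMSO, against 0.936 times for complex I and 1.18 times for complex V. At that stage the summed level of 14 proximal tubule markers was 6235 TPM in CPF and 1114 TPM in DMSO. Proximal tubule cells are rich in mitochondria, and more cells of a type and more RNA per cell cannot be told apart in whole kidneys. The complex II transcripts have 1142 (Sdhb) to 3171 bases (Sdhc). Over members averaging at least 20 TPM, transcript length was set against a gene's deviation from its mean at that stage. Spearman's rho was 0.38 in CPF and -0.25 in DMSO. The part of proximal tubule cells or of transcript length in the values of complex II was not tested.

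The libraries differed in other ways between the groups. Liver markers summed to 220, 5223, 6241 and 1127 TPM in CPF, against 22.8, 1044, 72.8 and 45.6 TPM in DMSO, and markers of red blood cells to 36821 TPM in CPF and 8056 TPM in DMSO at E12.5. The kidney identity markers summed to 271 to 673 TPM in CPF and 361 to 683 TPM in DMSO, so both groups carry the labelled tissue. Adrenal cortex markers were highest in CPF at E14.5 and E16.5, at 461 and 539 TPM, and at most 118 TPM in the other libraries. The part of these other tissues in the subunits' values was not tested. Without both the E14.5 and E16.5 pairs the members' median for CPF minus DMSO was 0.13 above all genes and 0 members were called.

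The slope over embryonic day did not differ between the agents for any gene at an adjusted p under 0.05, members included: limma called 0 of 75 members and 0% of all genes in either direction. At an unadjusted p under 0.05 there were 29 members with a higher slope in CPF and 2 with a lower one, and over all genes 3402 higher and 213 lower. The members' median was 0.106 log2 units per day, against 0.108 for all genes. As deposited 52 of 75 members were above 0 and 23 below, and over all genes 10550 above and 3127 below. After scaling to coding transcripts 42 members were above 0 and 33 below. Atp5e, the epsilon subunit of complex V, had the lowest unadjusted p (0.25 ± 0.057 per day, adjusted p = 0.132 in limma). Complex IV members lay on both sides of 0: Cox5b, a zinc-binding subunit, had a slope difference of 0.24 ± 0.064 and Cox7a2 one of -0.29 ± 0.11 (SE, log2 per day).

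Subunits of the same complex went opposite ways between libraries, and a pair of contrasting GC content was described in each complex. A single pair cannot show how the other members of a complex moved. In each complex the member with the lowest GC content was set over the one with the highest, among members with a mean of at least 100 TPM. In complex IV, Cox7b (42.0% GC) over Cox6a1 (58.8% GC) was 1.71, 3.76, 0.933 and 1.02 in CPF, against 0.501, 2.65, 2.20 and 1.91 in DMSO. In complex I, Ndufs4 (43.1% GC) over Ndufs7 (60.7% GC) was 1.70, 2.16, 0.864 and 0.822 in CPF, against 0.644, 1.84, 1.55 and 1.24 in DMSO. Both ratios were highest in CPF at E14.5 and lowest in DMSO at E12.5, and in CPF both were lower at E16.5 and E18.5 than at E12.5 and E14.5. In complex V, Atp5f1 (49.1% GC) over Atp5d (61.1% GC) was highest in CPF at E14.5, at 2.93, and lowest in DMSO at E12.5, at 1.40. In complex III, Uqcrb over Uqcr11 was 2.45, 2.17, 1.02 and 1.38 in CPF, against 1.09, 2.20, 2.07 and 1.13 in DMSO. In complex II, where the members' GC content differs least, Sdha (48.5% GC) over Sdhb (54.9% GC) lay between 0.477 and 0.621 in all 8 libraries and was highest in DMSO at E12.5. The paired members also differ in transcript length, with 1001 bases in Cox7b and 571 in Cox6a1, 1698 in Ndufs4 and 758 in Ndufs7, and 1604 in Atp5f1 and 931 in Atp5d.

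**Figure D4:**
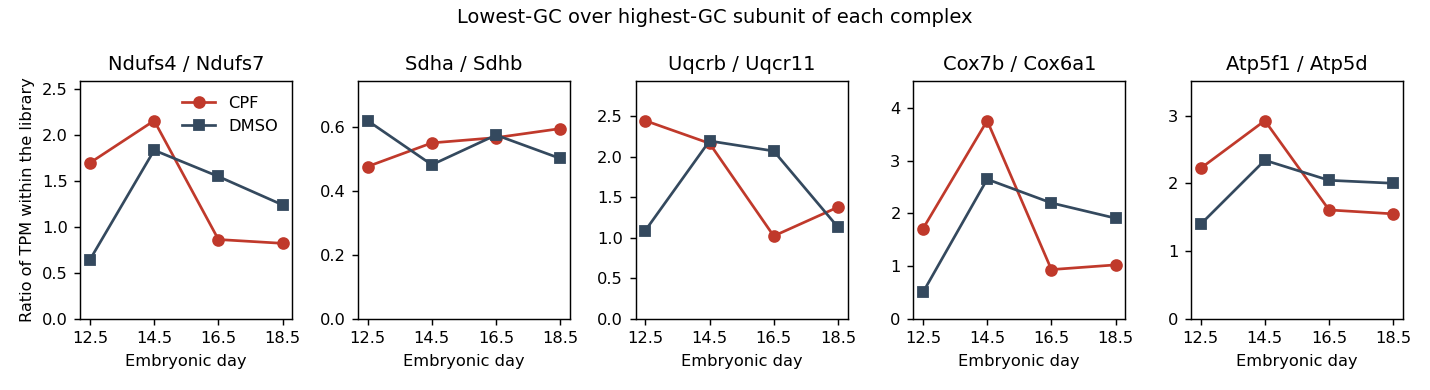
Ratio of the TPM of the lowest-GC subunit to that of the highest-GC subunit of each complex (vertical axis, from 0) against embryonic day, CPF as red circles and DMSO as dark squares, 1 library a point. In complex IV the ratio is 0.501 in DMSO at E12.5 and 3.76 in CPF at E14.5, and in complex II it stays between 0.477 and 0.621.

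A relation with GC content was also present over all genes. Across genes that averaged at least 20 TPM, Spearman's rho between GC content and a gene's deviation from its mean was -0.25, -0.62, 0.45 and 0.046 in the CPF libraries and 0.43, -0.21, -0.044 and 0.036 in the DMSO libraries (5973 genes, which are not independent replicates). For the 63 members in that range it was -0.42, -0.44, 0.45 and 0.27 in CPF and 0.45, -0.38, -0.24 and 0.12 in DMSO. Spearman's rho with transcript length for the same members was -0.077, -0.44, 0.10 and 0.38 in CPF, against 0.31, -0.19, -0.057 and -0.25 in DMSO. Length therefore went as far as GC content in CPF at E14.5 and further at E18.5 in both groups. For GC content both sets had the same sign in each of the 8 libraries, and each library's value mixes its stage, its agent and how it was made, which cannot be told apart with 1 library a group. The 63 members were split at their median GC content of 51.7%. At E18.5 both sets stood above the median of all genes: the 32 of lower GC by 0.31 in CPF and 0.18 in DMSO, and the 31 of higher GC by 0.46 in CPF and 0.28 in DMSO. At E12.5 those of lower GC stood at 0.0041 in CPF and -0.47 in DMSO, and those of higher GC at -0.18 in CPF and -0.15 in DMSO. An alternative chosen after seeing the data corrected for GC content and length in each library. With it the members' median for E18.5 minus E12.5 was 0.44 above all genes, against 0.56 as reported. The part of GC content and length in that difference was not tested.

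**Figure D5:**
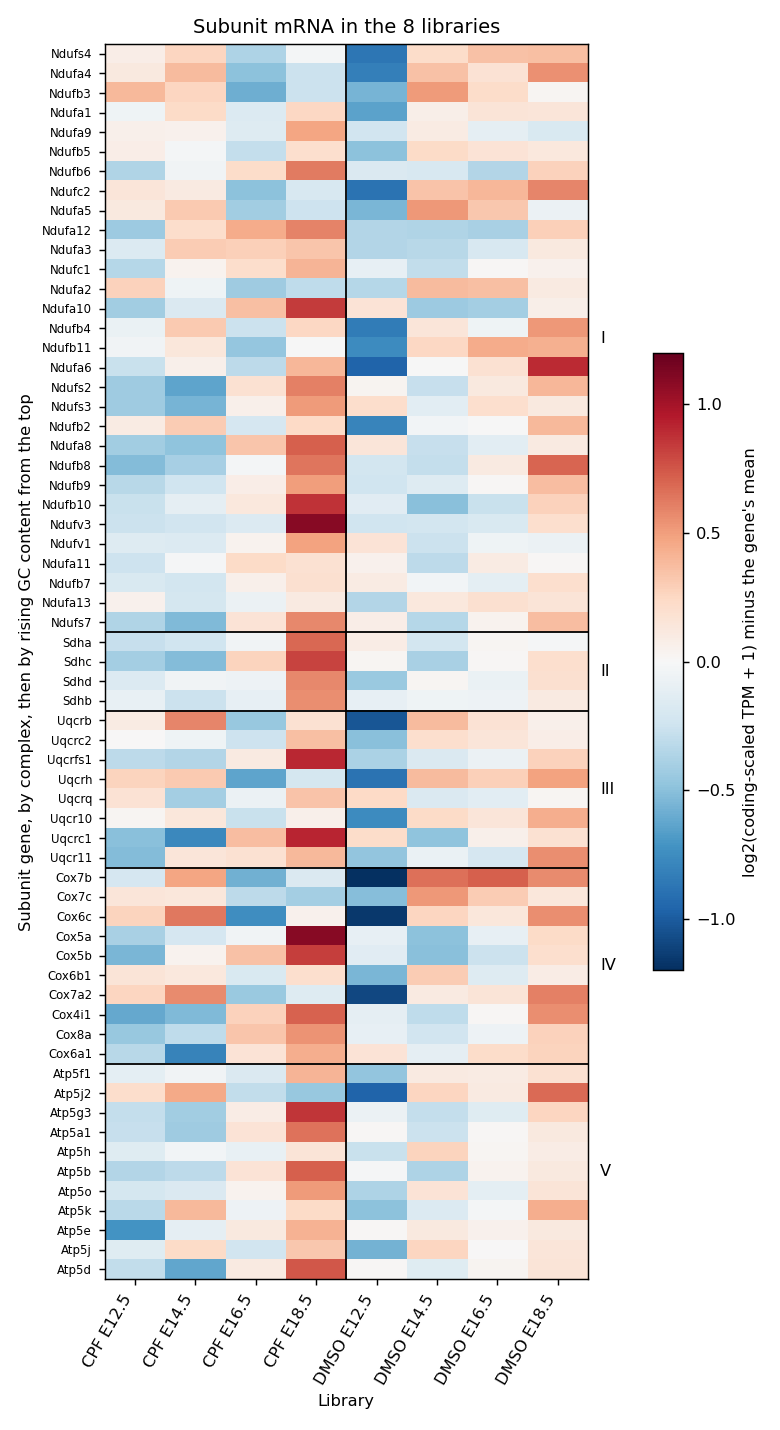
Level of the 63 subunit genes that averaged at least 20 TPM in the 8 libraries (columns), as log2(coding-scaled TPM + 1) minus the gene's mean over the libraries (blue lower, red higher). Rows are grouped by complex, I to V, and within a complex run from low GC content at the top to high at the bottom. Cox7b, Cox6c and Cox7a2 are lowest in DMSO at E12.5, and most rows are red in CPF at E18.5.

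Genes around the respiratory chain were described from lists. Cyc1, the cytochrome subunit of complex III, had 103, 97.6, 185 and 352 TPM in CPF, against 167, 121, 136 and 141 TPM in DMSO. Its stage difference was 0.76 ± 0.43 (SE, log2, limma adjusted p = 0.302). Of 6 tested further subunits and electron carriers, 0 were called in any comparison, among them Cycs (cytochrome c) and Ndufab1 (the acyl carrier protein of complex I). The 12 tested complex I assembly factors and the 25 tested assembly factors of complexes II to V likewise had 0 called in any comparison. Their medians for E18.5 minus E12.5 were 0.19 and 0.17 above all genes, below the 0.56 of the subunits. The 16 tested TCA cycle enzymes had a median 0.56 above all genes with 0 called, and of 12 tested carriers and porins 2 rose and 0 fell, with a median 0.50 above all genes. Those that rose were Ckmt1, a mitochondrial creatine kinase (3.50 ± 0.49, SE, log2, limma adjusted p = 0.000965), and Mpc2, a subunit of the pyruvate carrier (2.01 ± 0.34, adjusted p = 0.00318 in limma). Mpc2 had 59.4, 87.7, 175 and 383 TPM in CPF, against 62.8, 83.1, 134 and 161 TPM in DMSO, so the groups overlapped and each later stage was higher in both.

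Of 13 tested glycolysis genes 0 rose and 1 fell between E12.5 and E18.5. It was Hk2, a hexokinase, with 38.0, 24.9, 20.2 and 13.6 TPM in CPF, against 65.8, 30.7, 20.5 and 13.2 TPM in DMSO (-1.83 ± 0.35, SE, log2, limma adjusted p = 0.00696). Of the 19 listed glycolysis genes, Gapdh, Eno1, Hk1, Pfkm and Pfkp were among those not tested, with averages under 1 TPM. Of those tested, Aldoa averaged 2.04 TPM and Ldha 0.900 TPM. Values near 0 in these genes were not read as low expression. Of 10 tested genes of the hypoxia response 1 rose and 0 fell. It was Ndrg1 (4.20 ± 0.58, SE, log2, limma adjusted p = 0.00346), which had 11.2, 21.2, 80.6 and 574 TPM in CPF, against 10.3, 13.97, 33.4 and 79.6 TPM in DMSO. The 14 tested regulators of mitochondrial biogenesis had 0 called and a median -0.037 relative to all genes. Esrra, a nuclear receptor that acts on many subunit genes, had 12.04, 6.89, 18.6 and 43.0 TPM in CPF, against 18.8, 13.8, 18.8 and 17.2 TPM in DMSO, and Tfam, which packages mitochondrial DNA, had 36.8 to 56.9 TPM over all 8 libraries. Nrf1 averaged 1.01 TPM, which was not read as low expression. Ppargc1a, the coactivator best known for driving these genes, is listed at 0 in all 8 libraries and was not read. The 13 mitochondrially encoded subunits were not analysed here.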

How the data were processed

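RNA from 8 embryonic kidney samples was sequenced, from 2 μg of input per the labels' protocols. The submitters' processing notes name Trimmomatic, STAR and mm10, without versions, and the method of counting reads per transcript is not stated in the sources used here. The values the authors deposited are TPM per RefSeq transcript (32862 transcripts, 28523 NM and 4339 NR), which sum to 1000000 in each library. TPM keeps no depth, and from steps in the low values (71.4 to 77.4% of them whole multiples within 0.05) 1 read in 1 kb was worth 0.0610 to 0.105 TPM, so members above 100 TPM on average stand for about 333 to 51245 reads.

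Transcripts were summed per symbol, after 25 symbols listed as numbers were restored to 27 genes through their RefSeq identifiers. Near-identical genes were found with blastn 2.17.0 (95% identity over 50% of the transcript) in GENCODE M21 transcripts. limma 3.58.1 (R 4.3.3), with trend and robust moderation, was fitted to log2(TPM + 1) of 13677 genes with at least 1 TPM in at least 2 libraries. On that scale folds of low genes are understated. Stage and agent were terms (3 residual degrees of freedom), and a second fit had agent by embryonic day (4 residual degrees of freedom). Tests were checked on simulated data. Tables were handled with Python 3.11.15 and pandas 2.3.3.

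The members, gene lists and motifs were chosen with earlier results of these data known. Members are named by rule: the 3 most abundant of each complex, called members, the largest and smallest difference in each complex above 5 TPM on average, and tissue forms with their partners. Of other lists, up to 2 called genes were named, besides a set of regulators and carriers. Members past 2-fold in a stage, those under an unadjusted p of 0.05, those higher at all 4 stages and the contrasting pairs by GC content were named after their values were seen.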

Additional observations from a re-analysis of the deposited data

How the results depend on the processing

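The settings tried were another pseudocount (0.1), no filter or a filter of 5 TPM, scaling to coding transcripts, quantile normalization, plain limma, symbols with 1 transcript, other stage terms, and leaving out each library or stage pair. A correction for GC content and length, values within each agent, and coding scaling of genes that averaged at least 20 TPM were added after seeing the data. For E18.5 minus E12.5, 2 members were called higher as reported. That count was 1 with no filter and 4 on the coding scale. For genes averaging at least 20 TPM on the coding scale it was 5 as scaled and 4 as deposited. Over all genes 639 were called higher as reported, 271 with no filter and 1007 on the coding scale. For genes averaging at least 20 TPM on the coding scale they were 588 as scaled and 471 as deposited. The members' median stayed above all genes, at 0.39 to 0.71 over the alternatives and 0.38 to 0.59 when each library was left out. Leaving out a library left 1 library at its stage. Without CPF E18.5 the median was 0.022 for members and -0.45 for all genes. Without DMSO E18.5 it was 0.61 for members and 0.026 for all genes. For CPF minus DMSO, 0 members were called as reported, 1 with a filter of 5 TPM, and 0 to 1 when each stage pair was left out, with 1 without the E12.5 pair. Over all genes 89 were called higher with that filter and 82 without that pair, against 21 as reported. The members' median relative to all genes lay between -0.0023 and 0.12 when each stage pair was left out. It was below 0 without the E12.5 pair. For the slopes 15 members were called higher after the correction for GC content and length, where 1552 genes were called higher and 9 lower over the whole table, against 0 as reported; the cause was not tested. At E18.5 the members' median ratio was 0.28 above all genes with quantile normalization, against 0.090. The log2 ratio of the members' share, E18.5 over E12.5, was 0.60 of coding TPM against 0.35 of all TPM. Of 3651 values of single members under an alternative, 3127 stayed within 1 SE or kept their call, 483 moved further without a call, 36 gained a call, 5 lost one and 0 reversed. The CPF comparison was paired by stage, which was a term of its fit. Beyond that pairing, no paired analysis was possible because the labels number no replicates and each group has 1 library per stage. Depth limits the scarce forms most, since a value of 1 TPM stands for few reads.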

Other observations

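Cox7b2 and Cox6a2, which did not pass the filter, were highest in 1 library, CPF at E14.5. Cox7b2 had 8.52 TPM there, about 49 reads by the steps in the low values, and at most 0.298 TPM in the other 7 libraries. Cox6a2 had 4.01 TPM there, about 29 reads, and at most 0.955 TPM elsewhere. In that library the 8 germ cell markers summed to 331 TPM, against 14.9 to 74.7 TPM in the other CPF libraries and 16.1 to 30.9 TPM in the DMSO libraries. Heart markers were also highest there, at 30.2 TPM, against 7.01 to 17.2 TPM in the other 7 libraries. Markers of liver and skeletal muscle were not highest there: liver markers summed to 5223 TPM, against 6241 TPM in CPF at E16.5. Muscle markers summed to 387 TPM, against 471 TPM in CPF at E12.5. With 1 library no test is possible, and the part of these tissues in the 2 values was not tested.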
